A study of Homo sapiens with 14 samples.

Results

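The autophagy and mitophagy machinery was followed as a list of 51 genes through the arrays of a study of ANGPTL4 during epithelial-mesenchymal transition (EMT) of a gastric carcinoma line. The members were taken by gene symbol from the array's annotation, by their known step in the pathway and with earlier results of these data known, and 47 of the 51 lay above the limit set for dim genes, a mean log2 level of 5.90 over all arrays. That limit kept 11050 of the 18417 genes measured. By step of the pathway, 4 of 5 initiation genes, 6 of 6 genes of the class III PI 3-kinase complex, 6 of 6 genes of phagophore growth, 10 of 11 conjugation genes, 4 of 4 genes of the ATG8 family, 6 of 6 genes of cargo recognition, 3 of 3 mitophagy genes, 6 of 6 fusion genes and 2 of 4 control genes passed.

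The series holds 14 arrays, 1 for each condition. In the parental line, cells with ANGPTL4 knockdown and cells without it were kept at 1% O2 (hypoxia) or given TGFβ at 10 ng/mL, each for 1 or 2 days, and 1 untreated array without knockdown was made at day 2. In the Snai1ER derivative, which carries the EMT factor Snai1 fused to an oestrogen receptor domain so that 4-hydroxytamoxifen (4-OHT) switches it on, cells with ANGPTL4 knockdown and cells without it received 4-OHT at 20 ng/mL for 2 or 4 days, and 1 untreated array without knockdown was made at day 4. Per the study's methods the parental knockdown used siRNA and the Snai1ER knockdown a doxycycline-inducible shRNA, so the 2 lines differ in the way ANGPTL4 was lowered. The sample titles say only that ANGPTL4 was knocked down. They name no control siRNA or doxycycline for the arrays without knockdown. The labels name the line MKN28 where the paper writes MKN74. No array combines knockdown with no treatment, and the hypoxia and TGFβ comparisons share their untreated array.

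Autophagy encloses part of the cytoplasm in a double membrane, the autophagosome, which then fuses with the lysosome so that its cargo is broken down. The ULK1 complex starts the process, a PI 3-kinase complex marks the site, and ubiquitin-like conjugation attaches proteins of the LC3 and GABARAP family (the ATG8 proteins) to the growing membrane, where cargo receptors bind them. In mitophagy the cargo is the mitochondrion, recognised through receptors in its outer membrane such as BNIP3L and FUNDC1 or through the kinase PINK1. Transcripts of several of these genes are known to respond to low oxygen and to starvation, and TFEB and TFE3 drive many of them together with lysosomal genes.

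The promoters of 4 members are shown because the results turn on their genes or because of the sites they hold: WIPI1, which changed most under treatment, ATG12 and MAP1LC3B, with the lowest p-values after knockdown, and LAMP1, with the most E-boxes of the members matched. They come from RefSeq (GRCh38.p14), each running 5′ to 3′ on the gene's own strand and ending just before the transcription start, and were at chr17:68457497-68457746 (minus strand), chr5:115841566-115841815 (minus strand), chr16:87392086-87392335 (plus strand) and chr13:113296989-113297237 (plus strand). Capitals mark ACGTG or GCGTG on either strand in the first 3, the cores of the element bound by hypoxia-inducible factors, and CACGTG in LAMP1, the E-box that lies at the centre of the element bound by TFEB and TFE3.
WIPI1: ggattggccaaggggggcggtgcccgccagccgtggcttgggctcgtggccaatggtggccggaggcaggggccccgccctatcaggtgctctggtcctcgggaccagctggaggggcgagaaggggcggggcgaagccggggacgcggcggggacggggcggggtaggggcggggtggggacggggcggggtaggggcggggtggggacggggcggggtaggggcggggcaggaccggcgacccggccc
ATG12: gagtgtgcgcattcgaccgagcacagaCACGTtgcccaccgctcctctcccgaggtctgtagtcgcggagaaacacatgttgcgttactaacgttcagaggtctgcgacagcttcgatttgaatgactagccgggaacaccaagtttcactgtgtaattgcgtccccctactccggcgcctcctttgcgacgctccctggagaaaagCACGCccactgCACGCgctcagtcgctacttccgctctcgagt
MAP1LC3B: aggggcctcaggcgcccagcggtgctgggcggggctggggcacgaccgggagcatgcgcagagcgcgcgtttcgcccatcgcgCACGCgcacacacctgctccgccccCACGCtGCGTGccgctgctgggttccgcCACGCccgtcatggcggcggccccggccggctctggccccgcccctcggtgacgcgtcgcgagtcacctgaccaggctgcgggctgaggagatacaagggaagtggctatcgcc
LAMP1: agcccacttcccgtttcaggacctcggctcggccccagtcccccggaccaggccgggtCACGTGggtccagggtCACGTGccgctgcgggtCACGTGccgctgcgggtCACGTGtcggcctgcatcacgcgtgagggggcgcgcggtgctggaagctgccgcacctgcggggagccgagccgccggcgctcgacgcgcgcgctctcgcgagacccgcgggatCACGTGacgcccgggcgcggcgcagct

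The WIPI1 window held neither core, the ATG12 window held 1 ACGTG and 2 GCGTG, and the MAP1LC3B window held 4 GCGTG. The LAMP1 window held 5 complete copies of CACGTG. Promoters from 250 bases before to 50 bases after the start were matched for 42 of the 51 members and searched on both strands. CACGTG occurred in 5 of the 42 (11.9%), against 7.26% of all 35116 promoters and 10.3% of the 8910 that belong to genes above the limit for dim genes, and the 5 were ATG14, ATG3, TBK1, LAMP1 and SNAP29. ACGTG, which lies inside CACGTG, occurred in 33.3% of the members' promoters, against 21.4% of all promoters and 27% of those above the limit. GCGTG occurred in 52.4% of the members' promoters, against 36.5% and 50.5%. Neither the CLEAR palindrome, the full element of TFEB and TFE3 around CACGTG, nor TGATGNAA, an element bound by ATF4, was found in the 42, and they occurred in 0.353% and 3.62% of all promoters. These matches are counts of letters in a window and no binding was measured.

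The labels were compared with genes known to follow them. SNAI1 stood at 8.74 to 9.78 on the 5 Snai1ER arrays and at 5.48 to 6.07 on the 9 parental arrays. NDRG1, a gene induced by low oxygen, stood at 11.61 and 11.96 on the hypoxia arrays without knockdown, against 9.33 on the untreated parental array, and at 10.15 and 12.31 on the hypoxia arrays with knockdown. SMAD7, a gene induced by TGFβ, stood at 6.53 and 6.66 under TGFβ, against 6.17 untreated, a difference under 1.5-fold, at 6.22 and 6.30 under TGFβ with knockdown, and at 6.55 on the untreated Snai1ER array, so it did not set the TGFβ arrays apart. ANGPTL4 itself lay between 4.97 and 5.39 on all 14 arrays, below the limit for dim genes, so its probe set did not check the knockdown. All 8 epithelial markers were above the limit, with EPCAM between 11.46 and 11.96, while 3 of 4 fibroblast markers, 4 of 4 endothelial markers and 2 of 3 immune markers measured were below it, the exceptions being COL1A1 (6.62 to 7.23) and CD68 (6.93 to 8.09). The arrays with TGFβ and no knockdown had deposited medians of 5.23 and 5.19, where the other 12 lay between 5.997 and 6.16, so all values here are log2 levels after quantile normalization of the 14 arrays. The hypoxia knockdown array of day 1 stood farthest from the rest, with gene-wise deviations from the remaining arrays' mean that had a standard deviation of 0.72, where the corresponding values of the other 13 were 0.27 to 0.56.

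Hypoxia was compared with no treatment in the parental line. With 1 array per condition no p-value can be given, and a gene was called higher or lower when it differed by at least 1.5-fold (0.58 on the log2 scale) in the same direction on both days. By this rule 5 of the 47 members rose, where 3.02% of all genes did, and none fell, where 1.95% did. They were WIPI1, OPTN, BNIP3L, EPG5 and SQSTM1, which belong to 4 steps from membrane growth to fusion. The median difference of the members was 0.21, against -0.03 over all genes, with a range of -0.38 to 1.14, and 36 of the 47 were above 0, against 45.4% of all genes.

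**Figure D1:**
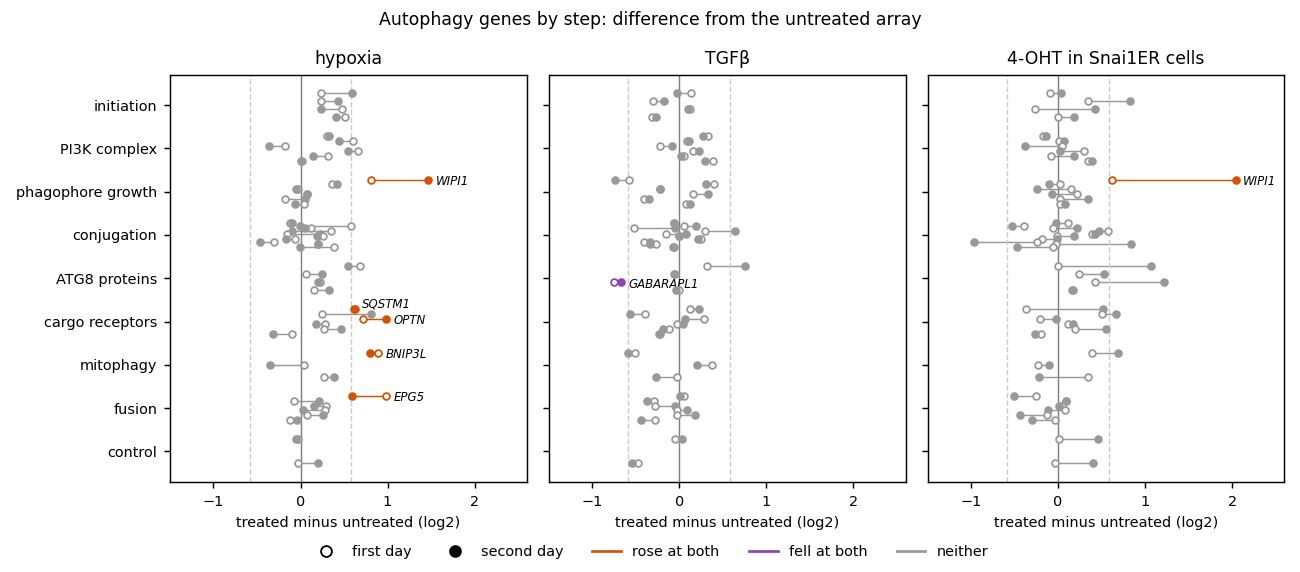
Log2 difference from the untreated array (horizontal axis) of the 47 members above the limit for dim genes, by step of the pathway (rows from initiation to control), in hypoxia, TGFβ and 4-OHT without knockdown, with an open point for the first and a filled point for the second time, joined per gene, and dashed lines at the 1.5-fold limit (0.58 either side of 0). Orange marks the members that rose at both times and purple the 1 that fell: 5 under hypoxia, WIPI1 alone under 4-OHT, where it reached 2.04 at the second time, and GABARAPL1 under TGFβ.

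WIPI1, which binds the lipid made by the PI 3-kinase complex on the growing membrane, stood at 9.94 and 10.60 on the hypoxia arrays of days 1 and 2, against 9.13 on the untreated array. These are differences of 0.81 and 1.47, or 1.76-fold and 2.77-fold. Both hypoxia arrays were above every other array of the parental line without knockdown, and the later one was the higher. The cargo receptor OPTN, which links ubiquitin-marked mitochondria to the membrane, stood at 10.56 and 10.83 under hypoxia, against 9.84 untreated, or 1.64-fold and 1.98-fold. BNIP3L, a mitophagy receptor known as a target of hypoxia-inducible factors, stood at 10.88 and 10.78, against 9.99 untreated, or 1.85-fold and 1.74-fold. It was nearly level over the 2 days.

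EPG5, a tether for the fusion of autophagosome and lysosome, stood at 7.83 and 7.44 under hypoxia, against 6.85 untreated, which is 1.98-fold on day 1 and only just past the limit, at 1.51-fold, on day 2. SQSTM1 (p62), the receptor that carries ubiquitin-marked cargo and is itself degraded with it, stood at 9.20 and 9.19, against 8.57 untreated, and was also close to the limit, at 1.54-fold and 1.53-fold. On the deposited scale SQSTM1 reached 1.55-fold and 1.49-fold and lost its call, while the other 4 kept theirs.

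No initiation gene was called, yet all 4 that passed the limit for dim genes were above 0 on average, between 0.33 and 0.46. RB1CC1, the scaffold of the ULK1 complex, had the largest mean of them (0.51 on day 1 and 0.40 on day 2). In the PI 3-kinase complex, ATG14, the subunit that directs the kinase to autophagy, differed by 0.66 and 0.55, just short of the limit on day 2. MAP1LC3B, the protein whose lipid-bound form marks autophagosomes, differed by 0.68 and 0.54 and missed the limit on the same day. The 10 conjugation genes had a median of 0.11, and ATG10, an E2-like enzyme of that step, had the largest difference of them (-0.30 and -0.46). Its levels under hypoxia, 5.86 and 5.70, were under the limit for dim genes. LAMP1, FUNDC1 and the transcription factor TFE3 had means of 0.07, -0.15 and -0.04.

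**Figure D2:**
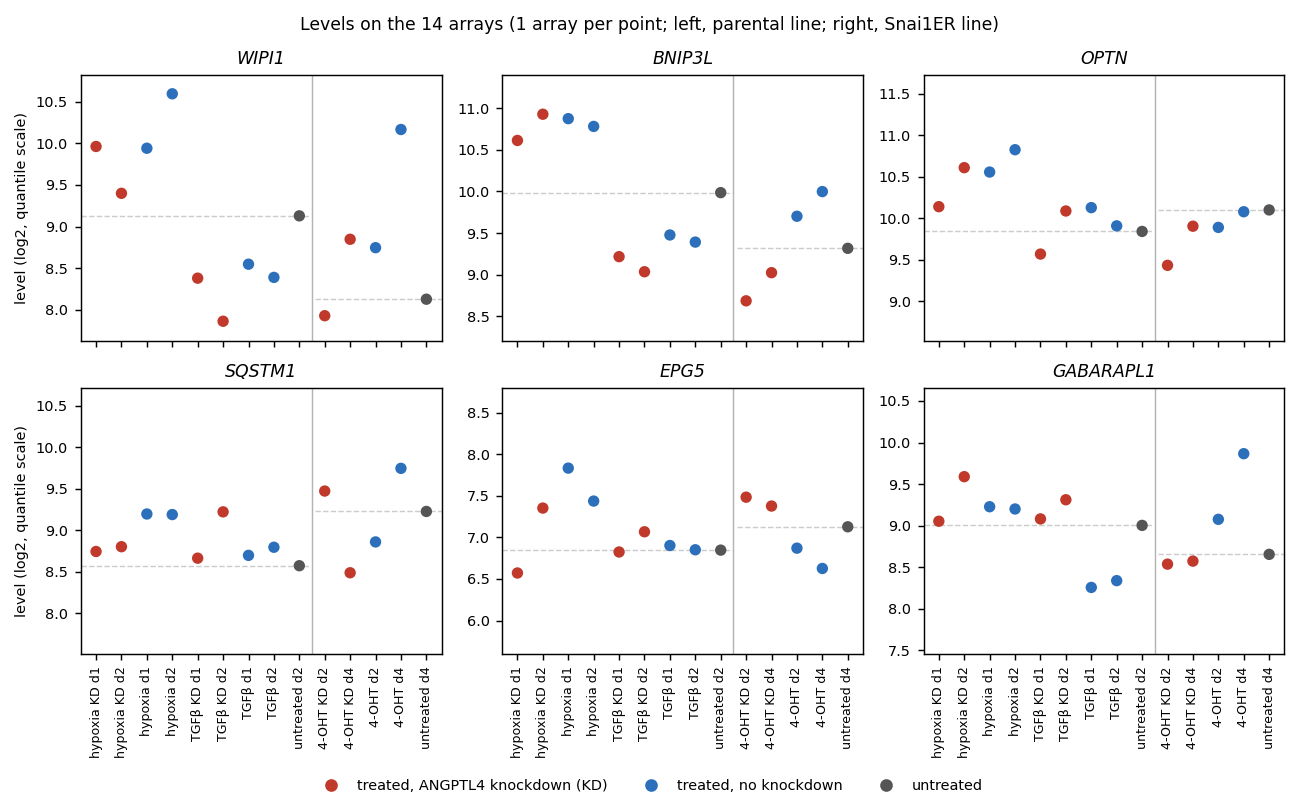
Log2 level after quantile normalization (vertical axis) of the 6 members called under a treatment, on every array, as 1 point per array with knockdown in red, treated without knockdown in blue and untreated in grey, the parental line left of the vertical line and Snai1ER right of it, and dashed lines at each line's untreated level. WIPI1 was at 9.94 and 10.60 under hypoxia and at 10.17 on day 4 of 4-OHT, above its untreated arrays at 9.13 and 8.13.

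Under TGFβ, none of the 47 members rose at both times, where 2.47% of all genes did, and 1 fell, where 3.27% did. The median difference of the members was -0.02, against 0.01 over all genes, and 21 of the 47 were above 0, against 51.3% of all genes. The member that fell was GABARAPL1, an ATG8 protein of the GABARAP branch. It stood at 8.26 and 8.34 under TGFβ, against 9.003 untreated, and these were the 2 lowest levels of GABARAPL1 on the 14 arrays. The difference was -0.75 and -0.66 after quantile normalization, and -1.11 and -1.005 on the deposited scale. With arrays centred on their median the mean was -0.24 and the call was lost.

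MAP1LC3B, of the LC3 branch, stood at 6.23 and 6.67 under TGFβ, against 5.91 untreated, with differences of 0.32 and 0.76, and only the second passed the 1.5-fold limit. On the deposited scale these were -0.42 and 0.07, so its direction under TGFβ depends on the scale. WIPI1 differed by -0.58 and -0.74 and BNIP3L by -0.51 and -0.59, so that 2 of the genes that rose in hypoxia were below the shared untreated array under TGFβ after quantile normalization, without meeting the limit at both times. TP53INP2, a nuclear protein that helps recruit ATG8 proteins, differed by -0.48 and -0.55. The counts in this treatment changed with the scale. Over all genes the median difference on the deposited scale was -0.45 and -0.47 on the 2 days, and there 12 members fell, where 32.3% of all genes did, while after centring each array on its median 6 members rose, where 22.5% of all genes did, and none fell.

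In the Snai1ER line 4-OHT was compared with no treatment. WIPI1 was the 1 member that rose at both times, where 2.33% of all genes did, and none fell, where 1.21% did. It stood at 8.75 on day 2 and 10.17 on day 4, against 8.13 untreated, or 1.54-fold and 4.12-fold. The level on day 4 was the highest of WIPI1 in that line. The members' median was 0.08, against 0.01 over all genes, and 31 of 47 were above 0, against 52.2% of all genes.

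More members differed on day 4 taken alone, when 7 were at least 1.5-fold higher, where 10.8% of all genes were, and 1 lower, where 10.2% were. Besides WIPI1 these were ATG13, an ULK1 complex subunit (0.83), the ubiquitin-like protein ATG12 (0.84), MAP1LC3B (1.06), GABARAPL1 (1.21), the cargo receptor NBR1 (0.67) and BNIP3L (0.68). The lower one was ATG10 (-0.97), whose level on that array, 5.63, was under the limit for dim genes. All 4 ATG8 genes were above 0 on average over both times, with a median of 0.46, while the 6 fusion genes had a median of -0.10. Between the 2 times 6 members were higher on day 4 than on day 2, where 6.83% of all genes were, and 1 was lower, where 9.52% were. The 6 were WIPI1 (1.42), MAP1LC3B (1.06), SQSTM1 (0.89), ATG12 (0.86), GABARAPL1 (0.79) and ATG101, a subunit of the ULK1 complex (0.68). Under TGFβ no member differed by that much between its 2 days, and neither did more than 0.0543% of all genes upward and 0.0724% downward. Under hypoxia WIPI1 was higher (0.65, where 1.07% of all genes were) and ATG4A, a protease that processes ATG8 proteins, lower (-0.59, where 1.06% were) on day 2.

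The knockdown of ANGPTL4 was compared over 6 pairs of arrays, each pair with the same treatment and time, with limma's moderated test and pairs as a block. Of 11050 genes, 87 were lower with knockdown (0.787%) and 10 higher (0.0905%) after Benjamini-Hochberg adjustment at 0.05. Of the 47 members, 1 was lower and none was higher by limma, with 13 members and 2103 genes in all below an unadjusted 0.05. The median difference of the members was -0.15, against -0.06 over all genes, and 34 of 47 were below 0. Most genes shared this direction, since the median of all genes was below 0 too. Within hypoxia, TGFβ and 4-OHT, 10, 18 and 13 of the 47 members were above 0 with knockdown. The shares of all genes there were 45.9%, 42.9% and 41.8%. Nothing in the labels says whether arrays came from separate cultures. These p-values weigh the mean knockdown difference only against its spread over the 6 pairs, and no condition was repeated. The pairs differ in treatment, time, line and the way ANGPTL4 was lowered, so differences of the effect between them count as error.

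The member that was lower was ATG12, the ubiquitin-like protein that is joined to ATG5 and with it attaches ATG8 proteins to lipid. With knockdown it stood at 7.06 and 7.81 under hypoxia, 7.37 and 7.61 under TGFβ and 7.48 and 7.24 under 4-OHT. Without knockdown it stood at 8.63 and 8.64 under hypoxia, 8.16 and 8.10 under TGFβ, 8.07 and 8.94 under 4-OHT, and 8.44 and 8.10 on the untreated parental and Snai1ER arrays. All 6 knockdown arrays were below all 8 others, which held for 1.34% of all genes and for no other member, and no member had all 6 above the others, as 0.516% of all genes had. On the deposited scale this separation was lost, since ATG12 was at 7.90 on the hypoxia knockdown array of day 2, against 7.84 and 7.78 under TGFβ without knockdown, and the day 2 TGFβ pair differed by -0.07. The mean difference was -0.995 (SE 0.19, adjusted p = 0.0466 by limma), lower in 6 of 6 pairs, with pairs from -1.70 to -0.49. The adjusted p was 0.156 on the deposited scale and ranged from 0.00702 to 0.216 over all settings tried. It was 0.0407 without the hypoxia day 1 pair and 0.0922 to 0.131 without any other single pair, so the call was lost in those 5 fits. The calls over all genes fell in the same fits from 97 to between 0 and 5, so the loss was not particular to ATG12.

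**Figure D3:**
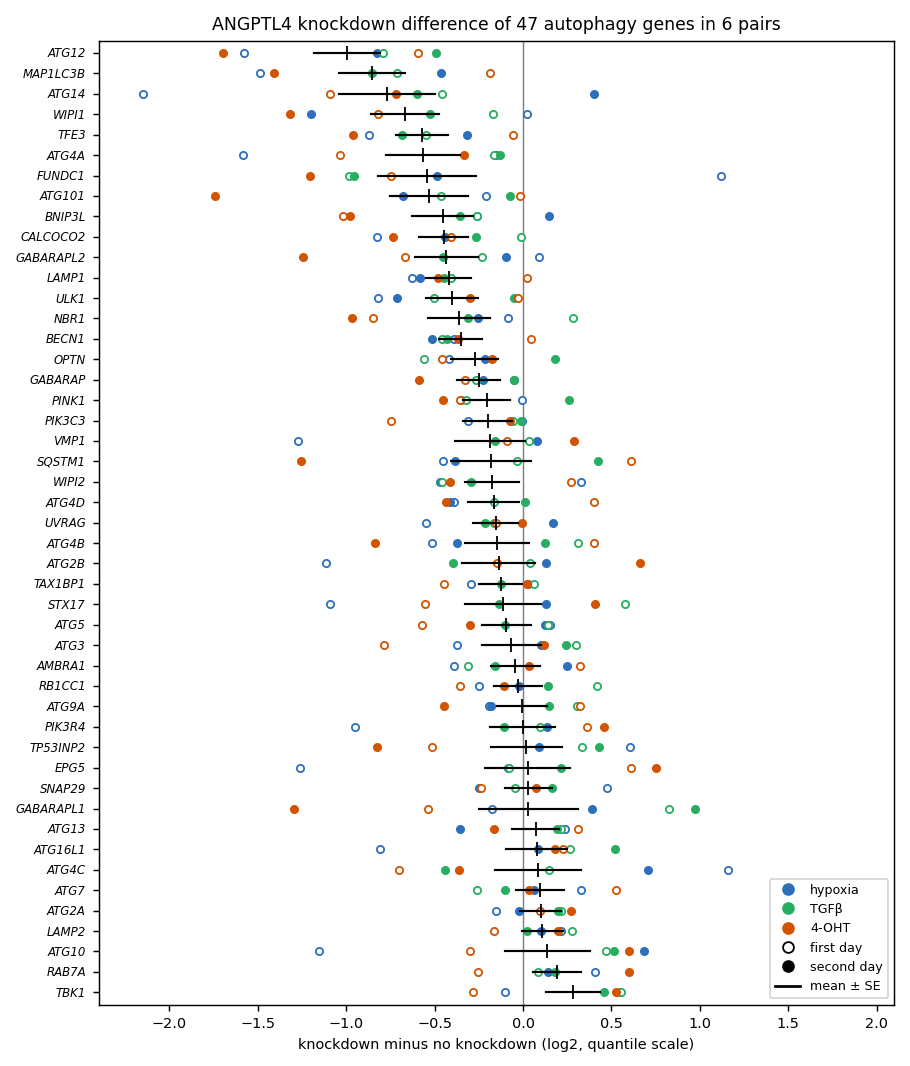
Log2 difference, knockdown minus no knockdown (horizontal axis), in each of the 6 pairs for the 47 members above the limit for dim genes, ordered by their mean, with colours for the treatment, open and filled points for the first and second time, and a black bar for the limma mean ± SE. ATG12 stands at the top, with all 6 pairs below 0, from -1.70 to -0.49.

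In all, 9 members were lower in 6 of 6 pairs, where 8.3% of all genes were, and none was higher in 6 of 6, where 3.87% were. On the deposited scale 2 members, ATG12 and LAMP1, were lower in 6 of 6, where 2.73% of all genes were, and 1 was higher, where 6.71% were, so of the 9 only ATG12 kept its direction in every pair. Besides ATG12 the 9 were ULK1 (the initiating kinase), ATG101, PIK3C3 (the catalytic subunit of the PI 3-kinase), ATG4A, MAP1LC3B, GABARAP, CALCOCO2 (a receptor for bacteria and mitochondria) and TFE3. MAP1LC3B stood next to ATG12 by p, with a mean difference of -0.85 (SE 0.19, adjusted p = 0.0710 by limma). With knockdown it stood at 5.10 and 5.99 under hypoxia, 5.52 and 5.82 under TGFβ and 5.71 and 5.55 under 4-OHT, against 6.59 and 6.45, 6.23 and 6.67, and 5.90 and 6.96 in the same treatments without knockdown. Every pair was lower with knockdown after quantile normalization, while the TGFβ pairs differed by 0.12 and -0.12 on the deposited scale. The untreated arrays, at 5.91 and 5.90, lay within the knockdown range, and several of these levels were under the limit for dim genes. A further probe set that MAP1LC3B shares with another gene was not used.

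TFE3 differed by -0.57 (SE 0.15, adjusted p = 0.104), WIPI1 by -0.67 (SE 0.19, adjusted p = 0.130, lower in 5 of 6 pairs) and LAMP1 by -0.42 (adjusted p = 0.139, lower in 5 of 6), all by limma. ATG14 had a wide spread, with a mean of -0.77 (SE 0.27, adjusted p = 0.181 by limma) and pairs from -2.15 to 0.40, the extreme pairs being those of hypoxia on days 1 and 2. By step, the median difference was lowest for the 3 mitophagy genes, at -0.45, and for the 4 ATG8 genes, at -0.34, and it was 0.03 for the 6 fusion genes. FUNDC1 had its only higher pair on day 1 of hypoxia, the pair that holds the array standing farthest from the rest. Its mean was -0.54 (SE 0.28, adjusted p = 0.316 by limma), with that pair at 1.12, and without that pair ATG12, FUNDC1 and WIPI1 were all called, among 427 of all genes in place of 97.

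Within a treatment the rule of size was applied to both pairs. Under hypoxia 2 members were lower with knockdown at both times, where 3.76% of all genes were, and 1 was higher, where 0.67% were. ULK1 stood at 6.25 and 6.72 with knockdown, against 7.07 and 7.43 without, and ATG12 differed by -1.58 and -0.83. The higher one was ATG4C, another protease of the ATG8 proteins, at 7.92 and 7.01 with knockdown, against 6.76 and 6.31 without. The 2 days were unlike, since on day 1 alone 15 members were lower and 3 higher, where 22.2% and 14.7% of all genes were, and on day 2 alone 4 were lower and 2 higher, where 9.9% and 4.19% were. The 5 genes that rose in hypoxia differed in their knockdown pairs. EPG5 stood at 6.57 and 7.35 with knockdown, against 7.83 and 7.44 without, so it was lower on day 1 alone. OPTN and SQSTM1 did not reach the limit on either day. WIPI1 stood at 9.96 and 9.40 with knockdown, against 9.94 and 10.60 without, so it was lower on day 2 alone. BNIP3L stood at 10.61 and 10.93, against 10.88 and 10.78, and did not reach the limit on either day.

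**Figure D4:**
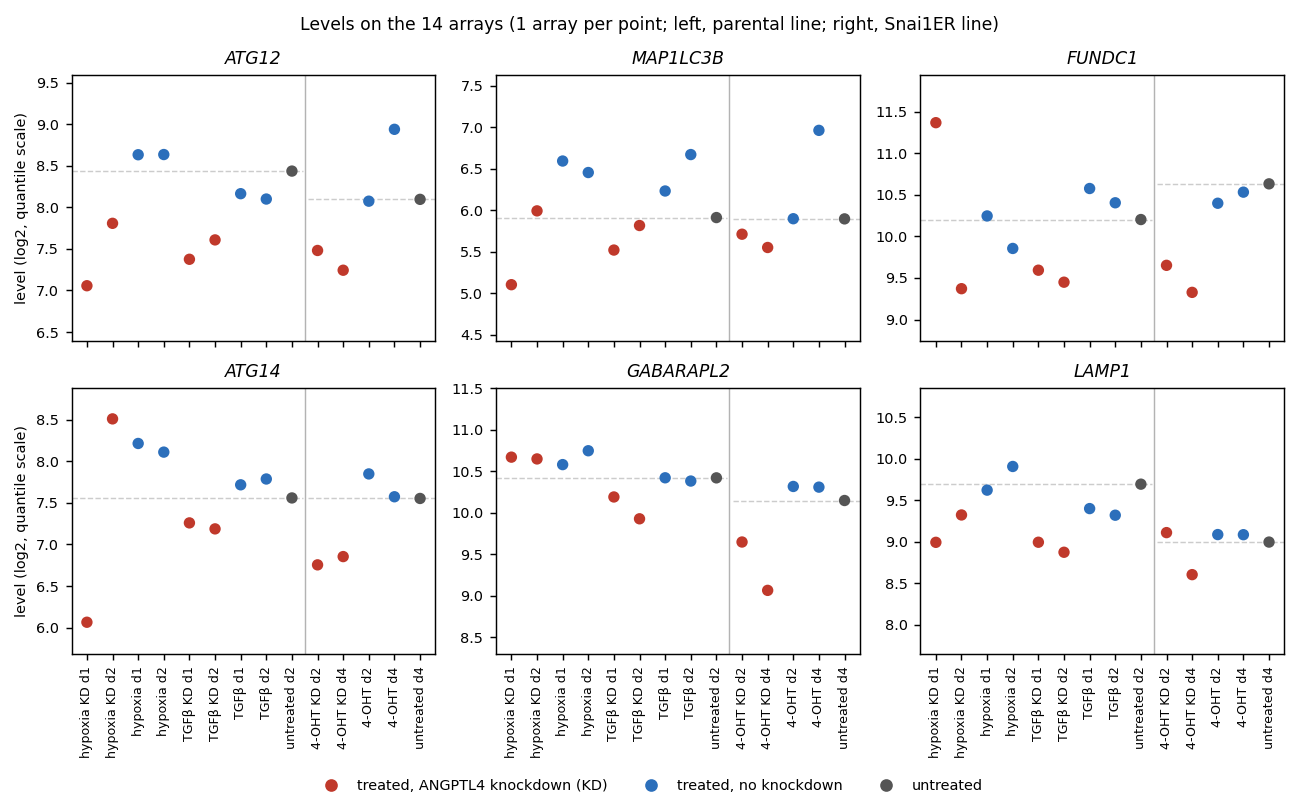
Log2 level after quantile normalization (vertical axis) of 6 members that were called in a comparison with knockdown arrays, on every array, with knockdown in red, treated without knockdown in blue and untreated in grey, the parental line left of the vertical line and Snai1ER right of it, and dashed lines at each line's untreated level. The 6 knockdown arrays of ATG12 lie between 7.06 and 7.81, below the other 8, between 8.07 and 8.94.

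Under TGFβ 2 members were lower with knockdown at both times, where 4.48% of all genes were, and 1 was higher, where 1.36% were. FUNDC1, a mitophagy receptor in the outer mitochondrial membrane, stood at 9.59 and 9.45 with knockdown, against 10.58 and 10.40 without. MAP1LC3B differed by -0.71 and -0.85, but on the deposited scale its mean difference was 0.00307, so its direction depends on the scale of the TGFβ arrays. GABARAPL1, the gene that fell under TGFβ, stood at 9.08 and 9.31 with knockdown, against 8.26 and 8.34 without and 9.003 on the untreated array. The knockdown arrays lay above the TGFβ arrays and near the untreated one. Both calls of GABARAPL1 under TGFβ rest on the same 2 arrays without knockdown, those with the lower deposited medians. They are therefore not separate results. The mean difference was 0.90 after quantile normalization, 1.28 on the deposited scale and 0.41 with arrays centred on their median, where the call was lost.

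Under 4-OHT 7 members were lower with knockdown at both times, where 7.48% of all genes were, and 1 was higher, where 2.19% were. The median of the members was -0.23, against -0.08 over all genes. WIPI1 stood at 7.93 and 8.85 with knockdown, against 8.75 and 10.17 without and 8.13 untreated, so knockdown arrays lay on either side of the untreated level. BNIP3L stood at 8.68 and 9.02 with knockdown, against 9.70 and 10.00 without. FUNDC1 stood at 9.65 and 9.33, against 10.40 and 10.53. All 3 were lower at each time, with differences between -1.32 and -0.75.

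The other 4 come from separate steps. ATG14 stood at 6.75 and 6.85 with knockdown, against 7.85 and 7.57 without. NBR1 stood at 8.28 and 8.34, against 9.13 and 9.30. GABARAPL2, an ATG8 protein, stood at 9.65 and 9.07, against 10.32 and 10.31, and its knockdown arrays were the 2 lowest of the 14. ATG12 differed by -0.59 on day 2, close to the limit, and by -1.70 on day 4. EPG5 was the higher one, at 7.48 and 7.38 with knockdown, against 6.87 and 6.63 without. With the arrays centred on their medians EPG5 lost this call and GABARAPL1 joined the lower ones.

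Whether the knockdown effect differed between the treatments was tested with limma's F test, which called none of 11050 genes and none of the members (percent called 0), with 1028 genes and 5 members below an unadjusted 0.05. GABARAPL1 had the lowest adjusted p of the members (0.344), with knockdown effects of 0.11 under hypoxia, 0.90 under TGFβ and -0.92 under 4-OHT (SE 0.26 each). ATG4C followed, with effects of 0.93, -0.15 and -0.53 (SE 0.25 each, adjusted p = 0.398 by limma). For BNIP3L they were -0.06, -0.31 and -0.997 (SE 0.21 each, adjusted p = 0.510). With 3 residual degrees of freedom, calls that differ between treatments are not shown to be differences.

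Treated knockdown arrays were also set beside the untreated array of their line, which carries no knockdown, so that treatment and knockdown cannot be told apart in these differences. Under hypoxia ATG4C and BNIP3L were higher, where 1.95% of all genes were, and ATG12 lower, where 5.8% were. BNIP3L was above the untreated array by 0.63 and 0.94. Under TGFβ 6 members were lower, where 3.74% of all genes were, and none was higher, where 0.968% were. They were WIPI1, ATG12, BNIP3L, FUNDC1, LAMP1 and TFE3. LAMP1, the main glycoprotein of the lysosomal membrane, stood at 8.995 and 8.87 with knockdown and TGFβ, against 9.69 untreated, and TFE3 at 6.17 and 6.12, against 6.77. Under 4-OHT ATG13 was higher, where 1.77% of all genes were, and ATG14, ATG4A, ATG12 and FUNDC1 were lower, where 5.43% were. ATG12 was the member that was lower in all 3 comparisons.

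The untreated Snai1ER array of day 4 differed from the untreated parental array of day 2 by at least 1.5-fold in 6 members. SQSTM1 was higher in Snai1ER, at 9.23 against 8.57 in parental cells (0.65), where 5.09% of all genes were higher. WIPI1 was lower in Snai1ER, at 8.13 against 9.13 (-1.003), and so were STX17, a SNARE of autophagosome fusion (-0.73), ATG9A, a lipid scramblase of the early membrane (-0.71), LAMP1 (-0.70) and BNIP3L (-0.67), where 8.13% of all genes were lower. Line and day cannot be told apart here. STX17 kept this order throughout the parental arrays without knockdown, at 7.87 to 8.15, against 6.73 to 7.17 in the Snai1ER arrays without knockdown.

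Other genes of the pathway were counted from 3 lists. Of 32 further autophagy genes measured, none was called under hypoxia, where 3.02% of all genes rose and 1.95% fell. None was called under TGFβ, where 2.47% rose and 3.27% fell. NIPSNAP1, a mitochondrial protein that can recruit autophagy receptors, rose under 4-OHT (mean 0.99), where 2.33% of all genes did. Of 19 lysosomal genes, 3 were lower under TGFβ, where 3.27% of all genes were, namely LAMP3 (-1.56 and -1.44 on the 2 days), the protease CTSD (mean -1.29) and the lipase LIPA (mean -0.80). On the deposited scale 6 of the 19 fell, where 32.3% of all genes did, and after median centring LAMP3 and CTSD fell and 4 others rose. None of the 19 was called under hypoxia or 4-OHT, where between 1.21% and 3.02% of all genes rose or fell. Of 26 genes of upstream control, 3 rose under hypoxia, where 3.02% of all genes did, and 2 under 4-OHT, where 2.33% did. DDIT4, an inhibitor of mTORC1, rose under hypoxia (0.72) and under 4-OHT (2.96), where its difference was the largest of any gene called in these lists. FNIP1 (0.88) and RRAGC (0.74), which act in nutrient sensing at the lysosome, rose under hypoxia, and FLCN, the partner of FNIP1 (0.75), rose under 4-OHT.

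After knockdown none of the genes of these 3 lists was called across the 6 pairs by limma, where 0.787% of all genes were lower and 0.0905% higher. Below an unadjusted 0.05 were 5, 3 and 4 of the autophagy, lysosomal and upstream genes, and 2103 of all 11050. The medians of the lists were -0.08, -0.15 and -0.12. By the rule of size, LAMP3 was lower with knockdown under hypoxia (-2.07) and under 4-OHT (-1.499). Under hypoxia RUBCN, which restrains autophagosome maturation (-1.23), the transcription factor MITF (-1.05) and the proton pump subunit ATP6V0D1 (-0.84) were lower too. USP30, a deubiquitinase that opposes mitophagy, was higher (0.69). Of all genes, 3.76% were lower and 0.67% higher there. Under TGFβ LAMTOR2 was lower (-0.80), where 4.48% of all genes were, and FKBP8, a mitophagy receptor, higher (0.83), where 1.36% were. Under 4-OHT 5 of 26 upstream genes were lower, where 7.48% of all genes were, and 4 of them, grouped after their values were seen and not tested as a group, were subunits of the Ragulator complex that holds mTORC1 at the lysosome, LAMTOR2 (-1.41), LAMTOR4 (-1.37), LAMTOR3 (-0.96) and LAMTOR5 (-0.74). The fifth was DDIT4 (-0.78). RPTOR, a subunit of mTORC1, was higher (0.93), where 2.19% of all genes were, and the SNARE VAMP8 lower (-1.23).

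The other 4 members had means under the limit for dim genes over the 14 arrays. The kinase ULK2 lay between 4.26 and 4.73, ATG16L2 between 5.22 and 6.02, the transcription factor TFEB between 5.53 and 6.14 and TP53INP1 between 4.71 and 6.16. The last 3 passed 5.90 on some arrays. No call was made on any of the 4, and TP53INP1 was the one that ranged widest. Most of the 47 members above the limit were called in no treatment or knockdown comparison by the rule for both times. TAX1BP1, SNAP29, RAB7A and GABARAP, which act in cargo binding and fusion or carry the membrane, are examples of these.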

How the data were processed

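Total RNA of each condition was amplified and hybridised to 1 GeneChip Human Gene 1.0 ST array. The authors deposited log2 values from RMA, run in Partek, whose versions are not given in the sources used here. The table holds 33297 probe sets on 14 arrays. Of these, 21214 are listed in the platform annotation, 19460 with 1 gene symbol, 1754 with more, while 12083 have no entry. Of the symbols, 19429 could be brought up to date by gene ID, and no gene was named from a probe set without a single symbol. In 29.6% of the probe sets, and in 7 of the members' 54, some arrays carry equal values.

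All arrays were quantile normalized over all probe sets, because the TGFβ arrays without knockdown lay lower on the deposited scale. Probe sets of a gene were averaged, and genes whose mean reached the 40th percentile (5.90) were kept. Treatments were compared by a rule of size (1.5-fold at both times). The knockdown was fitted with limma (lmFit and eBayes) over the 12 treated arrays, blocked by the 6 pairs of equal treatment and time that the design gives, which leaves 5 residual degrees of freedom. Benjamini-Hochberg adjustment ran over 11050 genes at a threshold of 0.05. The scripts were tested on simulated data. There the fit of the 6 pairs recovered 20.9% of planted 1.5-fold changes, 76.1% of 2-fold and 87.9% of 4-fold changes, with 4 false calls. A gene that the fit did not call may therefore still differ by 1.5-fold. R 4.3.3 and limma 3.58.1 were used.

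The members and the other gene lists were chosen with earlier results of these data known. All members may be named; those called are given array by array, with at most the largest of each step besides, and the genes named beyond this (near the limit, or moving unlike their step) were chosen after their values were seen. Of the other lists, 32 of 41 autophagy, 19 of 27 lysosomal and 26 of 34 upstream genes were measured above the limit. Alternatives were the deposited scale, median centring, other filters, the brightest probe set, a 2-fold rule, single time points, a variance trend, array weights, no block, and each pair left out. The number of arrays limits the precision.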

Additional observations from a re-analysis of the deposited data

Results flagged for a closer look

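TP53INP2, which helps bring ATG8 proteins to the autophagosome, moved in opposite directions in the 2 lines after knockdown. It was lower in both Snai1ER pairs (-0.83 and -0.52, mean -0.67) and higher in all 4 parental pairs (0.09 to 0.61, mean 0.36). The difference of the knockdown effect between Snai1ER and parental pairs was -1.04 (adjusted p = 0.256 by limma over all genes), so it did not pass the threshold. Of the 47 members above the limit for dim genes, 1 showed such a split, and so did 4.20% of all genes. The lines also differ in treatment and in how ANGPTL4 was lowered, and these cannot be told apart.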

How the results depend on the processing

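On the deposited scale 12 members fell under TGFβ (32.3% of all genes), 1 was lower and 9 were higher with knockdown under TGFβ (0.751% and 27.6% of all genes), and none was called across the pairs, and the TGFβ knockdown difference of MAP1LC3B turned to 0.00307. With arrays centred on their median, 6 rose and 0 fell under TGFβ (22.5% and 1.86% of all genes), and 14 were lower and 0 higher with knockdown under TGFβ (23.7% and 0.633%). On that scale 0 were higher with knockdown under 4-OHT (1.62% of all genes), and 13 were called across the pairs, where 1191 of all genes were. With 2-fold as the rule of size, every count of members by that rule was 0, where the shares of all genes were 0.0814% to 2.19%. At the first time alone, 8 rose under hypoxia (4.38% of all genes), and 15 were lower and 3 higher with knockdown there (22.2% and 14.7%). Under 4-OHT 11 were lower and 2 higher with knockdown at that time (14.6% and 6.05%). At the second time alone, 4 were lower and 2 higher with knockdown under hypoxia (9.9% and 4.19% of all genes). Under TGFβ 2 rose and 3 fell (3.47% and 4.71%), and 4 were lower with knockdown (8.98%). Under 4-OHT 7 rose and 1 fell (10.8% and 10.2%), and 16 were lower and 4 higher with knockdown (21.7% and 13.7%). A filter at the median of all genes left 1 member lower with knockdown under TGFβ (4.67% of all genes), since MAP1LC3B was then too dim. Across the pairs, the number of members called was 0 with no filter (107 genes in all), 2 with a variance trend (133 genes) and 8 with array weights (1698 genes). It was 3 with no replicate block (326 genes in all) and 0 to 3 when 1 pair was left out (0 to 427 genes). It was 0 without both TGFβ pairs, a setting chosen after seeing the data. The F test between treatments called no member in any setting tried. Where not named, the cause was not tested. The other 76 checks of counts stayed within 1.5 times, and of the checks of single genes 181 kept direction and call, 34 lost the call, 10 gained it and 1 reversed. Many of the 181 could not have come out otherwise. By the rule of size, another filter or probe set left the values of the called members, each with 1 probe set, unchanged. A call at both times also holds at each time alone.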
